A study of Mus musculus with 5 samples.

Results

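Amino acid transporters of 5 solute carrier families, Slc3, Slc7, Slc36, Slc38 and Slc43, were measured in the brain of old mice. Their genes were chosen by name: all protein-coding genes of the GENCODE M21 annotation whose symbol places them in one of these families. This gave 35 genes of the 47729 in the deposited table, with 2 in the Slc3, 15 in the Slc7, 4 in the Slc36, 11 in the Slc38 and 3 in the Slc43 family. The samples were 5 brains from male mice of the inbred strain C57BL/6, all 30 months old, with no treatment or other genotype named in the labels. They form 1 group and are called mice 7, 8, 9, 10 and 11 after the numbers in their labels. No younger mice were analysed, so the levels say nothing of a change with age, and the labels do not say which part of the brain was taken.

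Cells take up amino acids through membrane proteins that differ in what they carry and in what drives them. Slc7 proteins of one kind, the light chains, become active at the cell surface only when linked to a heavy chain of the Slc3 family, and they exchange one amino acid for another. Slc38 proteins move glutamine, alanine and other neutral amino acids together with sodium, and in the brain they serve the passage of glutamine from astrocytes to neurons, where it is turned into glutamate and GABA. Slc36 proteins and some Slc38 proteins work at the lysosome, where amino acid supply is sensed for the growth kinase mTOR. Of the Slc43 proteins, those of Slc43a1 and Slc43a2 carry large neutral amino acids without an exchange partner.

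The libraries held between 15392006 and 18723390 counts, of which the 35 genes took 0.203% in all. Levels are given in RPKM, which are counts per kilobase of gene length and per 1000000 counts of the library, as mean ± SD over the 5 mice (n = 5 throughout). The labels do not say outright that each library came from a separate animal, so the spread may in part be technical. The markers of neurons, astrocytes, oligodendrocytes, microglia, endothelium and choroid plexus, 8 genes each, were all detected with mean counts above 10. Of 9 markers of kidney and intestine epithelium, Umod and Kap had 0 counts in all libraries, and the 9 together reached 3.83 to 6.67 CPM (counts per 1000000 counts of the library). In such bulk samples fewer cells of a type and less RNA per cell cannot be told apart.

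Transcripts of 34 of the 35 genes were detected, and 22 had a mean of at least 1 RPKM. The median of all 35 was 4.24 RPKM. The 27 genes whose counts averaged 10 or more had a median of 8.51 RPKM, against 4.59 RPKM for all 16318 genes of the table that reached this count. The Slc38 family had the largest summed level, 146 ± 10.03 RPKM, followed by Slc7 with 126 ± 9.15, Slc36 with 39.2 ± 2.76, Slc3 with 35.5 ± 5.88 and Slc43 with 8.94 ± 1.47 RPKM. A few genes made up most of some families: Slc3a2 took 99.7% of the Slc3 sum, Slc43a2 96.7% of the Slc43 sum and Slc36a4 52.2% of the Slc36 sum. In the Slc7 family the highest gene, Slc7a8, took only 21.3%. With the M21 exon lengths described below the order of the top families turned, with 118 ± 8.49 RPKM for Slc7 and 94.1 ± 5.99 for Slc38.

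**Figure D1:**
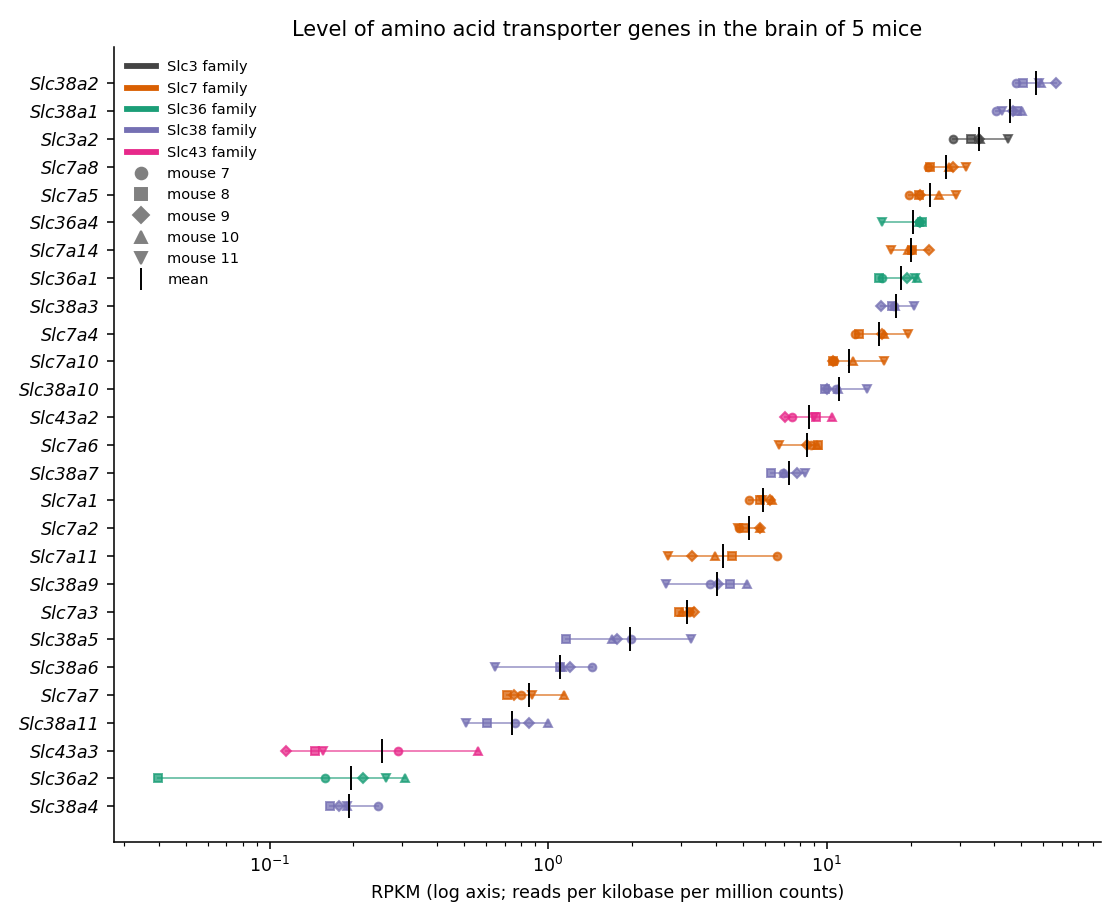
Level of the 27 amino acid transporter genes whose counts averaged 10 or more, in RPKM on a log axis. Symbols are single mice, colours are families and black ticks are means; the levels run from 56.4 RPKM for Slc38a2 to 0.193 RPKM for Slc38a4, and the widest spreads lie among the low genes such as Slc43a3 and Slc36a2.

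The order of levels was stable between mice in its broad outline and not between close neighbours. Slc38a2, Slc38a1, Slc3a2, Slc7a8 and Slc7a5 were the 5 highest genes by mean. Of the 34 neighbouring pairs in the order, 10 had the same gene ahead in all 5 mice and 24 did not. Slc38a2 was above Slc38a1, Slc3a2 above Slc7a8 and Slc7a8 above Slc7a5 in all 5 mice, while Slc38a1 was above Slc3a2 in 4 mice. From Slc7a5 down to Slc7a4 the neighbours Slc36a4, Slc7a14, Slc36a1 and Slc38a3 changed places in at least 1 mouse and did not differ beyond their spread. The gene length used matters for this order. With the exon lengths of GENCODE M21 in place of those implied by the authors' table, Slc38a2, Slc38a1 and Slc38a9 fell from 56.4, 45.7 and 4.04 RPKM to 29.5, 22.2 and 2.15 RPKM, and Slc3a2, at 35.4 RPKM under both, became the highest gene.

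Slc3a2 encodes the heavy chain that brings most brain light chains to the cell surface. It had 28.5 RPKM in mouse 7, 32.9 in mouse 8, 35.1 in mouse 9, 35.4 in mouse 10 and 44.8 in mouse 11, with a mean of 35.4 ± 5.95. Mouse 11 was the highest and mouse 7 the lowest. The other heavy chain, Slc3a1, known from the kidney, had 7, 6, 4, 2 and 1 counts in mice 7 to 11 and a mean of 0.110 ± 0.0732 RPKM. Its exons share 601 bases with those of Prepl, and reads there cannot be assigned with certainty.

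The 6 light chains known to pair with the Slc3a2 protein summed to 75.9 ± 7.45 RPKM, which was 2.17 ± 0.186 times the level of Slc3a2. The ratio was highest in mouse 7, at 2.44, and lowest in mouse 11, at 1.95. Slc7a8 and Slc7a5, the system L exchangers of large neutral amino acids such as leucine and phenylalanine, took 35.3% ± 2.38 and 30.8% ± 2.04 of the light chain sum. Slc7a5 is the form of the blood-brain barrier, where it also carries the drug L-DOPA.

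Slc7a8 had 23.2, 23.4, 28.5, 27.4 and 31.7 RPKM in mice 7 to 11, a mean of 26.8 ± 3.60. Slc7a5 had 19.7, 21.5, 21.6, 25.4 and 29.2 RPKM, a mean of 23.5 ± 3.82. Both were lowest in mouse 7 and highest in mouse 11, and Slc7a8 was the higher in every mouse. With M21 exon lengths the order of these genes turned, with 23.5 RPKM for Slc7a5 and 21.6 RPKM for Slc7a8.

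Slc7a10, an exchanger of small neutral amino acids that include glycine and D-serine, took 15.7% ± 1.52 of the light chain sum. Its level was 10.6 RPKM in each of mice 7, 8 and 9, 12.4 in mouse 10 and 16.02 in mouse 11, a mean of 12.03 ± 2.36. Mouse 11 stood above the others. Its exons share 377 bases with Lrp3. Slc7a6, which exchanges cationic for neutral amino acids, had 8.79, 9.28, 8.49, 9.26 and 6.73 RPKM, a mean of 8.51 ± 1.05, and was lowest in mouse 11. Slc7a7, the form of the same transport system that is mutated in lysinuric protein intolerance, had 0.801, 0.71, 0.756, 1.14 and 0.876 RPKM from 36 to 60 counts, a mean of 0.856 ± 0.168, with mouse 10 the highest, and it shares 232 exon bases with Oxa1l.

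**Figure D2:**
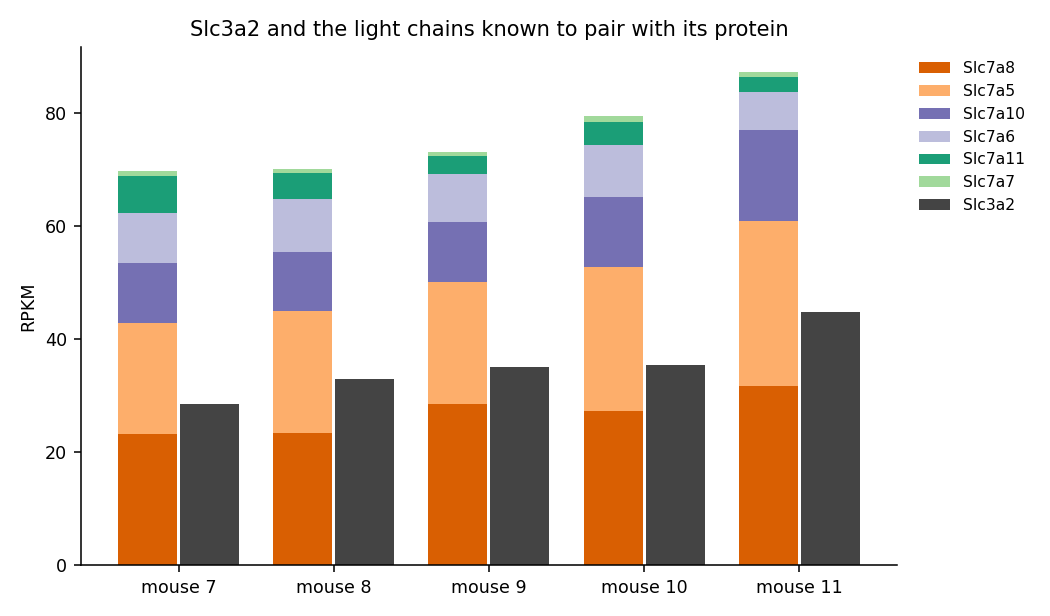
Level in RPKM of Slc3a2 (dark bars) and of the 6 light chains known to pair with its protein (stacked bars) in each mouse. The stack is higher than Slc3a2 in all 5 mice, from 69.7 against 28.5 RPKM in mouse 7 to 87.2 against 44.8 RPKM in mouse 11, and the Slc7a11 segment shrinks from 6.62 RPKM in mouse 7 to 2.70 RPKM in mouse 11.

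Slc7a11 encodes the exchanger that takes up cystine, the precursor of glutathione, and releases glutamate. Of the transporter genes whose counts averaged 100 or more, it had the largest SD of log2 CPM, 0.46. Slc36a2, Slc43a3 and Slc38a5, with lower counts, had 0.999, 0.86 and 0.56. With the GC and length trends described below removed, the SD was 0.20 for Slc7a11 and larger for other genes, such as 0.35 for Slc38a2. Slc7a11 had 6.62 RPKM in mouse 7, 4.58 in mouse 8, 3.29 in mouse 9, 3.98 in mouse 10 and 2.70 in mouse 11, from 1434, 982, 718, 889 and 705 counts. Mouse 7 was 2.45 times mouse 11, and the coefficient of variation (SD over mean) was 35.6% where counting error alone gives 3.25%. Its share of the light chain sum was 9.51% in mouse 7 and 3.10% in mouse 11.

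Slc7a11 is a textbook target of ATF4, the transcription factor induced when amino acids are short, and the amino acid response element that ATF4 binds can be written TGATGNAAN. Promoters were searched on both strands for this and 4 other strings, all chosen after the levels of the genes had been seen. RefSeq promoters of GRCm38.p6 were at hand for 25 of the 35 genes, and only the 250 bases before each start were searched. The element was found for 2 of the 25, Slc7a11 and Slc7a7, against 3.89% of 27025 genes with a promoter in the table. A stricter form, TGATGCAA, which overlaps it, was found for the same 2 genes and 0.918% of all. The Slc7a11 promoter, chr3:50443614-50443863 on the minus strand, held 2 copies that face each other, and 1 window of Slc7a7, chr14:54418047-54418115 on the minus strand, is shown beside it; capitals mark the element.
Slc7a11: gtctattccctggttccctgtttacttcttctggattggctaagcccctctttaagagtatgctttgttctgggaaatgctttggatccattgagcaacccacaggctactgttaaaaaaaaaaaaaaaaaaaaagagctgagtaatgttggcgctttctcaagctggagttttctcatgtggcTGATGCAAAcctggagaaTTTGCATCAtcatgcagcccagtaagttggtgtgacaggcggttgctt
Slc7a7: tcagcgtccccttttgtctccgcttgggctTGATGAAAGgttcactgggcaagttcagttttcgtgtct
The element of Nrf2, a factor of the antioxidant response, was searched as TGACNNNGC and found for 4 of 25 genes (Slc38a2, Slc43a1, Slc7a1 and Slc7a6) against 11.5% of all, and its stricter form TGACTCAGC for 0 of 25 against 0.426%. CACGTG, the E-box bound by Myc, clock factors and the lysosomal regulator TFEB, was found for 5 of 25 (Slc36a1, Slc38a5, Slc38a7, Slc43a1 and Slc7a14) against 6.86%. Of these, Slc36a1, Slc38a7 and Slc7a14 encode proteins of lysosomes, while Slc38a5 and Slc43a1 are not described as such here. Slc38a9, also lysosomal, was not among the genes with a match, but only 25 of the 35 genes had a promoter to search. Whether Slc38a9 was one of them is not given here, and a link to TFEB was not tested. The stretches with the matches are shown for Slc36a1 (CACGTG, chr11:55204279-55204339, plus strand) and Slc38a2 (TGACNNNGC, chr15:96699729-96699785, minus strand), with the matches in capitals.
Slc36a1: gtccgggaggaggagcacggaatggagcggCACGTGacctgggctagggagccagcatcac
Slc38a2: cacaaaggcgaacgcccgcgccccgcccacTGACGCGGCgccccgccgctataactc
These 4 stretches are shown because they hold the matches for genes described here, and they were picked with the values known. A match describes letters only, and no binding was measured.

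The cationic transporters carry arginine, lysine and ornithine and need no heavy chain. Slc7a1, the widespread form, had 5.26, 5.78, 6.28, 6.36 and 5.87 RPKM in mice 7 to 11, a mean of 5.91 ± 0.444. Slc7a3, a form of neurons, had 3.19, 2.95, 3.34, 3.03 and 3.22 RPKM, a mean of 3.15 ± 0.155, and its coefficient of variation of 4.92% was below the 7.18% that its counts alone would give. Slc7a2 lay between them at 5.24 ± 0.482 RPKM and was below Slc7a1 in all 5 mice, though 635 of its exon bases are shared with Gm26584.

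Slc7a14 and Slc7a4 resemble the cationic transporters in sequence. Slc7a14, which is found in lysosomes and is mutated in a form of retinitis pigmentosa, had 20.1, 20.3, 23.3, 19.6 and 16.9 RPKM in mice 7 to 11, a mean of 20.03 ± 2.26. Slc7a4, for which no transport has been firmly shown, had 12.7, 13.0, 15.8, 16.03 and 19.6 RPKM, a mean of 15.4 ± 2.79. In mouse 11 Slc7a14 was at its lowest and Slc7a4 at its highest, and only there was Slc7a4 the higher. Slc7a4 shares 554 exon bases with P2rx6.

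Slc38a2 and Slc38a1 are the sodium-coupled system A carriers that feed glutamine to neurons and other cells. With the lengths implied by the authors' table they were the highest of all 35 genes by mean. With M21 exon lengths they had 29.5 and 22.2 RPKM, against 35.4 for Slc3a2 and 23.5 for Slc7a5. The values that follow use the implied lengths. Slc38a2 had 47.8 RPKM in mouse 7, 50.8 in mouse 8, 66.7 in mouse 9, 58.9 in mouse 10 and 57.6 in mouse 11, a mean of 56.4 ± 7.38. Slc38a1 had 40.5, 48.3, 46.5, 50.2 and 42.8 RPKM, a mean of 45.7 ± 3.98. Both were lowest in mouse 7, with mouse 9 highest for Slc38a2 and mouse 10 for Slc38a1. The third system A gene, Slc38a4, abundant in the liver, had only 15, 10, 11, 12 and 14 counts and 0.193 ± 0.0304 RPKM.

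Slc38a3, the system N carrier through which astrocytes release glutamine, had 17.4, 17.2, 15.7, 17.6 and 20.6 RPKM in mice 7 to 11, a mean of 17.7 ± 1.79. Slc38a5, the other system N gene, had 1.98, 1.16, 1.77, 1.7 and 3.27 RPKM, a mean of 1.97 ± 0.783, from 69, 40, 62, 61 and 137 counts. Mouse 11 was highest for both, and mouse 8 stood lowest for Slc38a5. The sum of the 8 choroid plexus markers was 602, 480, 589, 521 and 734 CPM in mice 7 to 11, also lowest in mouse 8 and highest in mouse 11. This sum is mostly Ttr, and of the 8 markers only Ttr and Folr1 had that pattern one by one, while Kcnj13 ran the opposite way, with its top value in mouse 8 and its bottom value in mouse 11. The sum of the 7 erythroid markers was 105, 157, 54.9, 131 and 175 CPM, highest in mouse 11 and lowest in mouse 9. The astrocyte markers summed to 2450 to 2866 CPM, with 2858 in mouse 8 and 2855 in mouse 11. The sums for microglia, oligodendrocyte precursors, meningeal fibroblasts and ependyma were also highest in mouse 11. Those for neurons and mural cells were highest in mouse 7 and that for oligodendrocytes in mouse 8. The endothelium sum was also highest in mouse 8, at 289 CPM, with 274 CPM in mouse 11. The part of any of these cell types in the Slc38a5 values was not tested.

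The other Slc38 genes were lower. Slc38a10 had 10.8, 9.89, 10.1, 10.9 and 13.9 RPKM in mice 7 to 11, a mean of 11.1 ± 1.63, and mouse 11 lay apart from the other 4. It shares 367 exon bases with Gm11769. Slc38a7, which exports glutamine and asparagine from lysosomes, had 7.30 ± 0.797 RPKM. Slc38a9, the lysosomal arginine sensor of the mTOR pathway, had 4.04 ± 0.940 RPKM, with 5.19 in mouse 10 and 2.65 in mouse 11, and shares 182 exon bases with Gm47827.

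Slc38a6 had 1.44, 1.10, 1.20, 1.12 and 0.645 RPKM in mice 7 to 11, a mean of 1.10 ± 0.288, with mouse 7 highest and mouse 11 lowest. Slc38a11 was low at 0.744 ± 0.195 RPKM from 40 to 69 counts. Slc38a8 had 6, 3, 8, 5 and 1 counts, a mean of 0.0832 ± 0.0502 RPKM.

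Among the proton-coupled family, Slc36a4 and Slc36a1 were at similar levels. Slc36a4, a carrier of proline and tryptophan, had 21.5, 22.0, 21.6 and 21.5 RPKM in mice 7, 8, 9 and 10 and 15.7 in mouse 11, a mean of 20.5 ± 2.64. Mouse 11 stood alone below the other 4 mice, which were nearly alike. Slc36a1, which exports small amino acids from lysosomes, had 15.8, 15.3, 19.4, 21.1 and 20.8 RPKM, a mean of 18.5 ± 2.76, with mice 7 and 8 below the rest. Slc36a2 had 8, 2, 11, 16 and 16 counts and 0.197 ± 0.103 RPKM, with mouse 8 lowest. Slc36a3 had 2 counts in mouse 8 and 0 in the others. A library with 0 counts could still hold up to 3 at this depth.

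Of the Slc43 genes, Slc43a2, which lets large neutral amino acids leave cells, had 7.53, 9.12, 7.11, 10.5 and 9.03 RPKM in mice 7 to 11, a mean of 8.65 ± 1.34, with mouse 10 highest and mouse 9 lowest. It shares 922 exon bases with Gm45606. Slc43a3, a carrier of purine bases rather than amino acids, had 20, 10, 8, 40 and 13 counts, a mean of 0.253 ± 0.184 RPKM, with mouse 10 at 0.559. Summed cerebellum markers were also highest in mouse 10, at 322 CPM against 145 to 185 CPM in the others, and their part in the Slc43a3 value was not tested. Slc43a1 had 5, 5, 1, 1 and 7 counts and 0.0402 ± 0.0269 RPKM.

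The remaining genes were at or near the limit of detection. Slc7a15 had 15, 2, 8, 1 and 7 counts in mice 7 to 11, and Slc7a12 had 0, 4, 2, 0 and 0. Slc7a9, the partner of Slc3a1 in the kidney, had 1 count in mouse 7 and 0 in the others. Slc7a13 had 0 counts in all 5 libraries. Together with Slc3a1, Slc38a8, Slc43a1 and Slc36a3 these are the 8 genes with a mean count under 10, which were left out of the main test across genes.

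Several genes of a family lie on the same stretch of a chromosome in the GRCm38 genome, some with like and some with unlike levels. On chromosome 15, Slc38a1 (96571418 to 96642913), Slc38a2 (96687392 to 96699730) and Slc38a4 (96994820 to 97055956), all on the minus strand, had 45.7, 56.4 and 0.193 RPKM. On chromosome 11, Slc36a3 (55124815 to 55151708), Slc36a2 (55158470 to 55185077) and Slc36a1 (55204350 to 55236330) had 0.0109, 0.197 and 18.5 RPKM, with Slc36a1 on the plus strand and the other genes on the minus strand. On chromosome 7, Slc7a10 (35186385 to 35201114) had 12.03 RPKM and Slc7a9 (35448796 to 35466036) 1 count in all. On chromosome 2, Slc43a1 (84838850 to 84863594) and Slc43a3 (84936579 to 84958509) were both low.

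Related transporters were compared within each mouse, as the log2 ratio of RPKM with 0.1 added to each value. In 10 of 12 pairs the same gene was the higher in all 5 mice. For each of these 10 pairs an exact two-sided permutation test that flips the signs gave p = 0.0625, the smallest p that 5 mice allow, and 0.075 after Benjamini-Hochberg adjustment over the 12 pairs, so no pair could pass 0.05. The log2 ratio averaged -0.20 ± 0.12 for Slc7a5 to Slc7a8 and -0.30 ± 0.18 for Slc38a1 to Slc38a2. Slc3a2 exceeded Slc7a5 by 0.59 ± 0.08, the narrowest spread of the 12 pairs.

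Slc7a10 exceeded Slc7a11 by a log2 ratio of 1.53 ± 0.68, with 0.67 in mouse 7 and 2.52 in mouse 11, the widest spread of the 12. None of the ratios was corrected for the trends with GC content described below, and these 2 genes have a GC content of 57.0% and 40.7%. With the trends removed, the log2 CPM deviations in mice 7 and 11 were -0.02 and 0.01 for Slc7a10 and 0.22 and 0.02 for Slc7a11. Slc7a1 exceeded Slc7a3 by 0.89 ± 0.13, and Slc38a7 exceeded Slc38a9 by 0.86 ± 0.48. Slc7a6 lay above Slc7a7 by 3.18 ± 0.30, Slc38a3 above Slc38a5 by 3.17 ± 0.42 and Slc43a2 above Slc43a3 by 4.75 ± 0.56. The ratio of Slc43a1 to Slc43a2 averaged -5.97 ± 0.37. The added 0.1 understates differences of the low genes. The ratio of Slc36a1 to Slc36a4 averaged -0.15 ± 0.37 and that of Slc7a4 to Slc7a14 -0.39 ± 0.36. Both were above 0 in mouse 11 only, and the exact permutation test gave p = 0.3125 and p = 0.125 (0.3125 and 0.136 adjusted). With M21 exon lengths the mean ratio of Slc36a1 to Slc36a4 was 0.09.

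**Figure D3:**
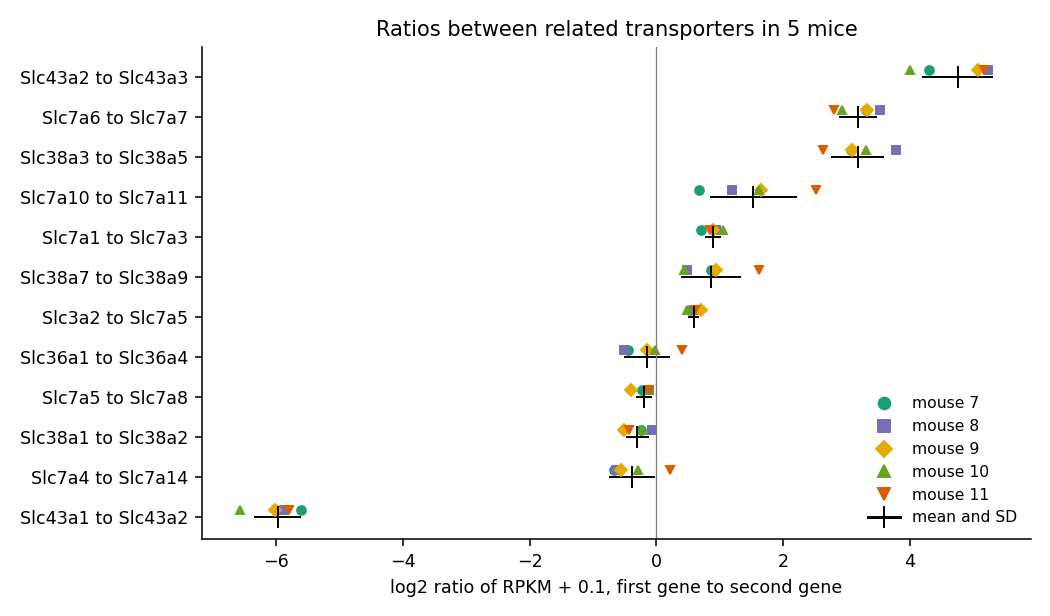
Log2 ratio of RPKM (0.1 added) between 12 pairs of related transporters; coloured symbols are mice, black lines are the mean and SD over 5 mice. In 10 pairs all symbols lie on one side of 0, while Slc36a1 to Slc36a4 and Slc7a4 to Slc7a14 cross it in mouse 11.

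To ask whether any transporter varied more between mice than other genes of its level, each gene's spread was compared with the spread of all 16318 genes whose counts averaged 10 or more. With edgeR's quasi-likelihood fit and Benjamini-Hochberg adjustment 0 of 27 transporter genes were called variable, and 0.0% of all genes. At an unadjusted p under 0.05 the count was 0 of 27, against 4.84% of all genes. DESeq2 marked 0 of 27 as dispersion outliers and 0.3% of all genes. Slc7a11 had the smallest p of the 27 in this fit, 0.0605 unadjusted and 0.979 adjusted, and its adjusted p ranged from 0.472 to 0.997 over all settings tried. The median SD of log2 CPM was 0.23 for the 27 genes and 0.30 for all genes tested. These SDs were not matched for level, and the 27 genes had the higher median level, 8.51 against 4.59 RPKM. The fit also gives the ratio of each gene's dispersion to that fitted for genes of its level. Its median was 0.944 for all genes tested and not lower for the 27 genes, of which 14 had a ratio above 1. A gene that is not called may still differ between mice, since the test asks only for a spread beyond that of other genes, and on simulated data it missed moderate differences in a single mouse.

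Which mouse a transporter stood high or low in went with the base composition of its transcript. GC content was taken from the longest M21 transcript, and its median over all genes tested was 49.4%. The order of mice here is that of log2 CPM with TMM scaling, in which close values can rank otherwise than in RPKM, as for Slc36a1 in mice 10 and 11. Of the 14 transporter genes above that median 10 were highest in mouse 11, against 65.1% of all such genes. They were Slc3a2, Slc7a5, Slc7a8, Slc7a10, Slc7a4, Slc38a3, Slc38a5, Slc38a7, Slc38a10 and Slc36a1, and 0 of the 14 were lowest there (8.9% of all such genes). Of the 13 genes at or below the median 0 were highest in mouse 11 (10.3% of all such genes) and 7 were lowest there (56.4% of all such genes), namely Slc7a11, Slc7a14, Slc7a6, Slc36a4, Slc38a6, Slc38a9 and Slc38a11. Without regard to GC, 10 of 27 were highest in mouse 11 (37.6% of all genes tested) and 7 lowest there (32.7%). These counts were near the shares of all genes of like composition. The correlation of GC content with the deviation in mouse 11 was r = 0.78 over the 27 genes and 0.64 over 16264 genes; the points share the same libraries, so r is given as a description.

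**Figure D4:**
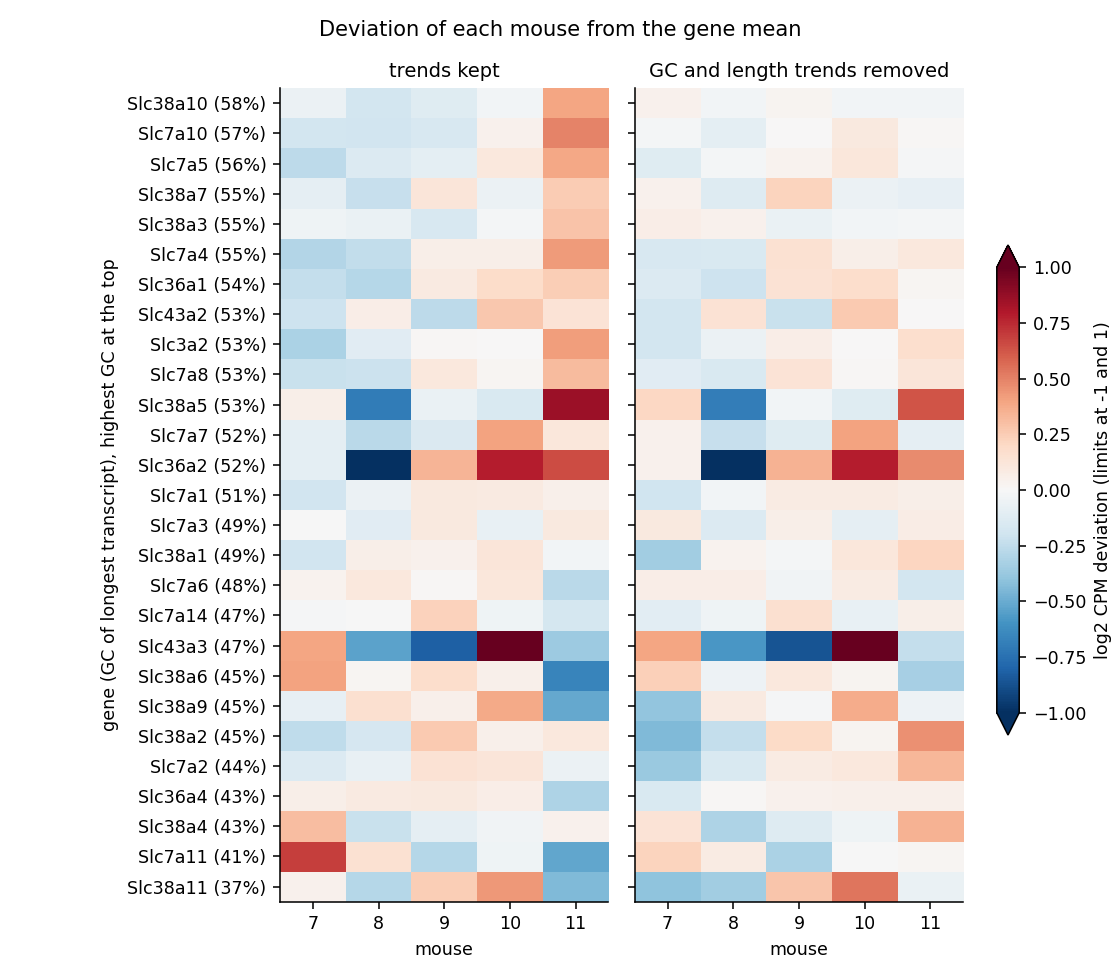
Deviation of log2 CPM in each mouse from the mean of the gene, for 27 transporter genes in order of GC content (highest at the top), before and after the GC and length trends of each library were removed. Before removal the mouse 11 column runs from red at high GC to blue at low GC, and afterwards this gradient is gone, while Slc43a3, Slc36a2 and Slc38a5 keep strong colours.

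The trends with GC content and length, fitted on all genes separately per library, were then subtracted. After that, of the 14 genes of high GC 2 were highest in mouse 11 (26.1% of all such genes) and 1 lowest (25.8%). Of the 13 genes of low GC 5 were highest there (28.5%) and 2 lowest (30.8%). Over all 27 genes 7 were highest in mouse 11 (27.3%) and 3 lowest (28.3%), and the correlation over the 27 genes was -0.0023. The SD of log2 CPM went from 0.27 to 0.13 for Slc3a2, from 0.26 to 0.087 for Slc7a5, from 0.29 to 0.072 for Slc7a10, from 0.23 to 0.035 for Slc38a10 and from 0.17 to 0.087 for Slc36a4. For Slc7a11, with a GC content of 40.7%, the deviations in mice 7 and 11 went from 0.69 and -0.52 to 0.22 and 0.02. The median deviations of all 1356 genes with a GC content between 40.2% and 42.6% were 0.32 in mouse 7 and -0.43 in mouse 11 before removal.

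The spread of Slc38a2, Slc38a1 and Slc7a2 became wider instead, and to a lesser degree that of Slc38a4, Slc38a11 and Slc7a3. The length trend was fitted with M21 exon lengths. For Slc38a2 and Slc38a1 these are 8838 and 17236 bases, against 4626 and 8391 implied by the authors' table. Slc7a2 has 9135 bases by both. Slc38a9, with 16704 against 8904 bases, became narrower, its SD of log2 CPM going from 0.33 to 0.28. Whether the wider spread of Slc38a2 and Slc38a1 rests on the length used was not tested. The SD of log2 CPM of Slc38a2, with a GC content of 44.7%, grew from 0.21 to 0.35, with deviations of -0.44 in mouse 7 and 0.46 in mouse 11, that of Slc38a1 from 0.12 to 0.21 and that of Slc7a2 from 0.13 to 0.27. With the trends removed Slc38a2 had an edgeR quasi-likelihood p of 0.0226 before and 0.855 after Benjamini-Hochberg adjustment. In that setting 1 of the 27 transporter genes and 909 of all 16318 genes had an unadjusted p under 0.05. The adjusted p of Slc38a2 ranged from 0.829 to 0.999 over all settings tried. Slc38a5 stayed spread, at 0.56 before and 0.48 after removal, with mouse 11 highest and mouse 8 lowest in both. On this scale mouse 8 was the highest for 0 of the 27 genes and mouse 10 the lowest for 0, with and without the trends, against 12.3% and 13.1% of all genes with the trends kept.

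**Figure D5:**
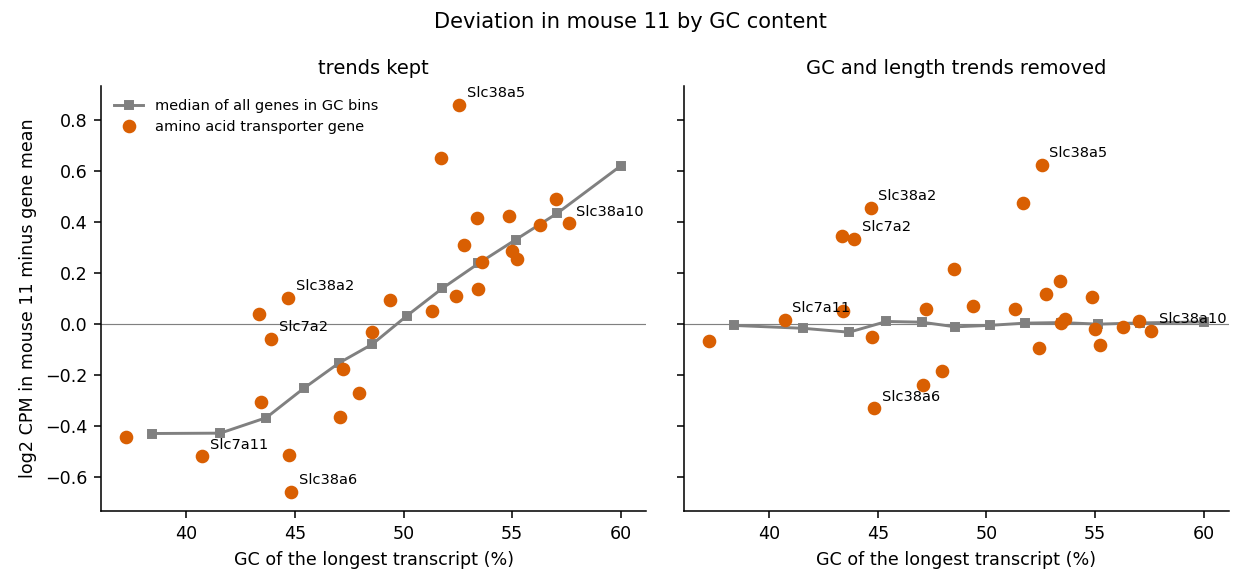
Deviation of log2 CPM in mouse 11 from the mean of the gene against the GC content of the longest transcript (%), with the trends kept (left) and removed (right); orange points are the 27 transporter genes and grey squares are medians of all genes in 12 bins of GC content. On the left the points follow the rising grey line, for example Slc7a11 at -0.52 and Slc38a10 at 0.40, and on the right Slc38a5 at 0.63, Slc36a2 at 0.48 and Slc38a2 at 0.46 lie highest.

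Genes around amino acid transport showed a like picture. Of 8 lists of such genes, with 112 distinct genes tested, 0 genes were called variable by edgeR's quasi-likelihood fit, and 3 had an unadjusted p under 0.05, while all genes gave 4.84%. These 3 were Slc6a5, the glycine transporter of glycine neurons, Vldlr, a lipoprotein receptor induced by ATF4, and Dld, a subunit shared by the glycine cleavage system. Slc6a5 had 1.42, 3.31, 0.337, 1.32 and 0.326 RPKM in mice 7 to 11, highest in mouse 8 and lowest in mice 9 and 11. Vldlr had 10.8 RPKM in mouse 7, 6.06 to 6.30 in mice 8, 9 and 10 and 3.51 in mouse 11, highest and lowest in the same mice as Slc7a11. The list of 18 ATF4 response genes ran the other way, deviating in log2 CPM by -0.20 in mouse 7 and 0.12 in mouse 11. With the trends removed these deviations were -0.10 and -0.12. Dld had 59.1 RPKM in mouse 7 and 21.1 in mouse 11, again the outer values. With the trends kept, 41.0% of all genes at or below the median GC content had their top value in mouse 7. For 56.4% of such genes mouse 11 held the bottom value. The part of base composition in the Vldlr and Dld values was not tested.

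The other members of these lists give the setting of the transporters. Glul, the astrocyte enzyme that makes the glutamine carried by Slc38 proteins, had 548 ± 86.9 RPKM, and the lowest of the 10 glutamine and glutamate enzymes, Gpt, had 6.19 ± 1.97. Of 18 genes of the ATF4 response the highest was Atf4 itself, at 54.5 ± 5.55 RPKM, and the lowest Stc2, at 0.256 ± 0.0850. Atf4 was lowest in mouse 7, at 46.8 RPKM, where Slc7a11 was highest, and had 57.4, 57.4, 50.7 and 60.2 RPKM in mice 8 to 11. Among 11 genes of cysteine and glutathione metabolism the highest was Ggt7, at 32.4 ± 8.73 RPKM, and the lowest Ggt1, at 0.499 ± 0.139. Of 27 genes of amino acid sensing by mTOR complexes, the small GTPase gene Rraga was highest, at 71.8 ± 5.23 RPKM, and the arginine sensor Castor1 lowest, at 1.81 ± 0.513.

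Among enzymes, Psat1 of serine synthesis had 40.7 ± 3.61 RPKM and Shmt1 of the same list of 10 genes 0.883 ± 0.152. Ppm1k, which activates the breakdown of branched-chain amino acids, had 17.3 ± 2.42 RPKM and Bcat2, an aminotransferase of that pathway, 0.933 ± 0.254, the highest and lowest of 12. Gatm, which uses arginine to make a creatine precursor, had 57.7 ± 2.69 RPKM and Arg1, an arginase, 0.135 ± 0.102, again the highest and lowest of 12. Of 18 other amino acid transporters the astrocyte glutamate carrier Slc1a2 was highest, at 305 ± 55.7 RPKM, and Slc6a14 lowest, with a mean of 0.2 counts.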

How the data were processed

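Brain RNA of 5 mice was sequenced after an Illumina mRNA preparation, per the labels' protocols. The submitters' processing notes name GRCm38 and the tools STAR 2.4.1d, CASAVA 1.7 and featureCounts 1.4.6-p4. The sources used here give no settings, annotation release or strand setting. The authors deposited whole-number counts and RPKM values per Ensembl gene, and all columns were used.

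Over 12729 well-covered genes, the deposited RPKM returned 1 length per gene (within 1%) only if library totals were recycled from row to row, so that 20.0% of values were divided by their own total. RPKM were therefore recomputed from counts with each library's own total. The gene length implied by the deposited values was kept as the main length after both were compared; 74.6% of these lengths were within 1% of the M21 exon length. Symbols, coordinates and GC content came from GENCODE M21, which matched 47310 genes, and unmatched genes held 0.0469% of counts.

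Spread between mice was tested with edgeR 4.0.16 (intercept fit, TMM scaling, robust prior from limma 3.58.1), with DESeq2 1.42.0 as an alternative, and the procedure was tested on simulated data. With dispersions scattered as in the real fit it found only very large differences of a single mouse and missed moderate ones, so a count of 0 calls carries little information. The design did not fix the form of the edgeR fit. The first form called 0 genes, and 2 others, run after that was seen, also called 0. Log2 CPM used a prior count of 1. Trends with GC content and exon length were fitted with natural splines of 4 degrees of freedom, and the split at the median GC content was made after the pattern in mouse 11 had been seen. The limit of 3 counts for a gene at 0 covers counting error only. Library pairs differed by a chi-square per gene of 7.02 to 101 and were treated as 5 samples.

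The genes, gene lists and pairs were chosen with earlier results of these data known. By the rule for named genes, values per mouse were given for the 3 highest genes, the highest and lowest detected gene of each transport role, genes of pairs whose order changed between mice, genes called variable, and the 5 with the largest SD of log2 CPM among those tested. From each list of surrounding genes the highest, the lowest and any called were named. The values per mouse of the other transporters, and the list genes with an unadjusted p under 0.05, were added after they were seen. Of the list genes, 2 symbols had no match.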

Additional observations from a re-analysis of the deposited data

Results flagged for a closer look

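In 4 of the 35 genes the level of 1 mouse lay far from the other 4, by a gap to the nearest value of more than 0.71 of the range. The share of all genes that meet this criterion was not counted, so whether 4 of 35 is many cannot be said. For values on a continuous scale, chance alone sets off this criterion in about 1 of 20 groups. That rate does not apply to Slc36a3 and Slc7a9, because a gene with counts in only 1 library always meets the criterion. Slc36a4 had 15.7 RPKM in mouse 11 against 21.5 to 22.0 RPKM in the others, and Slc38a10 had 13.9 RPKM in mouse 11 against 9.89 to 10.9 RPKM. After subtraction of the GC and length trends, mouse 11 deviated by 0.05 for Slc36a4 and -0.03 for Slc38a10 on the log2 scale, from -0.31 and 0.40 before. Slc36a3 had 0.0547 RPKM in mouse 8, from 2 counts, and Slc7a9 had 0.0242 RPKM in mouse 7, from 1 count, with 0 counts elsewhere.

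The same criterion picked out 2 marker sums. The mural cell markers summed to 276 CPM in mouse 7 and to 229 to 240 CPM in the others, and the cerebellum markers to 322 CPM in mouse 10 and 145 to 185 CPM in the others.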

How the results depend on the processing

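The count of transporter genes called variable was 0 under all 15 alternatives tried: other scalings, filters and forms of the edgeR fit, a prior without the robust option, removal of trends, DESeq2 and leaving out each mouse in turn. The unadjusted edgeR p fell under 0.05 for Slc7a11 with library totals alone (0.0496), without a filter on low counts (0.0193), without mouse 8 (0.0492) and without mouse 11 (0.0138). For Slc38a2 it did so with the trends removed (0.0226) and with mouse 11 left out as well (0.0384). In each of these settings this was the only such gene of the 26 to 34 transporter genes tested. Of all genes, 799 of 16318, 1691 of 28335, 856 of 16292 and 1030 of 16305 were under 0.05 in the settings named for Slc7a11, in that order. In those named for Slc38a2 the counts were 909 of 16318 and 922 of 16305. Of 115 surrounding genes 1, Slc6a5, was called without the filter, where 60 of all 28335 genes were called, and 1 of 112, again Slc6a5, was a dispersion outlier in DESeq2, where 49 of 16318 genes were; the cause was not tested. The M21 exon lengths, the removal of trends together with leaving out mouse 11, and the 2 other forms of the edgeR fit (790 and 786 genes at an unadjusted p under 0.05, against 789) were chosen after seeing the data. With M21 lengths 6 of 35 levels moved by more than their SD, and the log2 ratio of Slc7a5 to Slc7a8 turned to 0.11 because the lengths differ; that of Slc38a7 to Slc38a9 was 1.74. A pseudocount of 1 moved 5 of 12 ratios and one of 0.01 moved 1, all in their size and none in direction. No paired analysis was possible because there is a single group. Levels under 10 counts are limited by depth, and near-identical or overlapping genes cannot be separated here.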
